A study of Homo sapiens with 18 samples.

Results

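The beta-globin cluster on chromosome 11 was followed by chromatin accessibility in the human colon fibroblast line Ccd18-Co. Its members were chosen by position, as every peak of the bulk ATAC-seq (assay for transposase-accessible chromatin) count table in a stretch of 200 kb on chromosome 11 (hg38) that holds the 5 beta-like globin genes and their locus control region, and these were 22 of 334857 peaks. The window was selected on a readout of the same table, after a peak upstream of HBB had been seen to rise with belinostat. For the peaks of the window, all values of belinostat against DMSO, and all values of that leading peak, are therefore given as a description without a p-value, and the leading peak is left out where counts are read against all peaks. The tests against unstimulated libraries use the same belinostat or DMSO libraries that led to the choice. Their p-values at other peaks of the window are therefore not independent of it. The limits were positions and not values. The outermost members began at 5196162 and ended at 5344259, and the 100 kb below and above the window held 4 and 11 peaks.

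The 3 groups held 6 libraries each, all from this single established line. Unstimulated cells received neither cytokines nor belinostat, as far as their labels say. DMSO cells received 3 pulses of TNF, OSM and IL-17A at 10 ng/ml each with IL-1β at 0.1 ng/ml, each pulse of 72 h being followed by 96 h of recovery, then 1 week of rest and 5 days of the solvent DMSO. Belinostat cells had the same history, with 250 nM belinostat, an inhibitor of histone deacetylases, in place of the solvent alone. Collection took place 2 weeks after this last treatment in the DMSO and belinostat groups, so that the values describe what remained and not the acute response. The labels do not say whether unstimulated cells had the solvent or the same handling. Differences from them can therefore not be assigned to cytokines alone. Below, the words after cytokines and cytokine difference stand for DMSO against unstimulated libraries. Nothing in the labels says that replicates came from separate cultures, so that p-values measure only the spread between these samples, which may be technical. Doses were taken from the labels. The text of the study gives a much higher dose of belinostat, and in places a lower dose of IL-1β. The dose behind the belinostat values is therefore uncertain.

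Beta-like globins are the partner chains of alpha globin in haemoglobin. Their genes stand on the chromosome in the order of their use during development, from HBE1 of the embryo over HBG2 and HBG1 of the fetus to HBD and HBB of the adult. In erythroid cells they are switched on by the locus control region, a series of DNase hypersensitive sites (HS1 to HS5) upstream of HBE1, of which HS2 is the classical enhancer, bound by NF-E2 and AP-1 family factors at tandem sites, and HS5 and the far 3' site at the other end of the cluster are bound by CTCF, an insulator and loop-forming protein. BCL11A and histone deacetylase complexes are known to keep fetal globin genes silent in adult red cells, and inhibitors of histone deacetylases are known to raise fetal globin there. ATAC-seq reads the insertion of a transposase into open DNA, so that a peak marks accessible chromatin and not transcription.

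Counts in peaks ranged from 7077321 to 11352032 in unstimulated, from 6488975 to 8066642 in DMSO and from 4661678 to 6370845 in belinostat libraries. The 10000 strongest peaks held a falling share of counts over the same groups, from 35.4% to 39.0% in unstimulated libraries, to 31.8% to 35.2% in DMSO and 28.4% to 34.5% in belinostat libraries. Relative to all counts, strong peaks as a class were thus lower and weak peaks higher in DMSO and belinostat than in unstimulated libraries. This bears on every fold change against unstimulated cells. Whether the peaks themselves lost or gained accessibility cannot be read from a share, and was not tested. Unstimulated 6, with 11.3% of peaks at a count of 0, and belinostat 1, with 5.348%, stood apart from their groups. The part of these differences in the results was not tested beyond the values without a library and with loess offsets given beside them. The label fibroblast was checked at gene starts. Of 11 fibroblast markers 10 had a peak within 500 bp of the start, with a summed level of 207 to 284 CPM (the count of a peak relative to the scaled library size) over all libraries. Of 9 erythroid markers 3 had such a peak (EPB42, HBA1 and HBA2), with a summed level of 4.54 to 6.26 CPM in unstimulated, 4.83 to 8.40 in DMSO and 4.89 to 9.49 in belinostat libraries, and the starts of GATA1 and KLF1, the defining erythroid factors, were among those with none. The leukocyte list had a peak at 2 of 5 starts, where CD14 held nearly all of its 9.32 to 18.8 CPM, and the start of PTPRC was among those with none. Endothelial starts had 3 of 4 (2.66 to 9.49 CPM), epithelial starts 4 of 5 (18.3 to 24.0 CPM) and smooth muscle starts 4 of 4 (21.9 to 36.7 CPM). The lists differ in length, so that their sums are not on a like footing. The median level of a listed gene ran over the 3 groups from 15.0 to 19.4 CPM for fibroblast markers. It ran from 3.70 to 4.19 for smooth muscle, from 2.28 to 3.18 for epithelial and from 0.524 to 1.26 for endothelial markers. In a bulk sample, fewer open cells and less opening per cell cannot be told apart.

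The 5 genes lie on the minus strand, so that upstream means a higher coordinate. RefSeq places HBB from 5225464 to 5227071, HBD from 5232838 to 5234483, HBG1 from 5248269 to 5249857, HBG2 from 5253188 to 5254781 and HBE1 from 5268345 to 5269945. RefSeq bodies were used because GENCODE 44 extends HBG2 and HBE1 by readthrough transcripts over the locus control region. No peak of the table overlapped the start or body of HBB, and the nearest, the leading peak (5229605 to 5230189, called the HBB upstream peak here), began 2534 bp upstream of the RefSeq start and 210 bp upstream of the most upstream start of a GENCODE transcript of HBB. It lies outside every annotated exon, between HBB and HBD. HBD had a peak over its start and first exon (5234176 to 5234851). HBG1 had a narrow peak over its start (5249729 to 5249911). The HBG2 start had no peak, and this gene held a peak over its 3' end (5252628 to 5253468) and a narrow peak in its body (5254188 to 5254406). HBE1 had no peak in its body or in the 3 kb upstream of it.

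Upstream of HBE1, 5 peaks lay between its start and the nearest coding olfactory receptor gene, OR51B4. Neither annotation marks the hypersensitive sites, and the names used here rest on their known order and spacing. The peak from 5275581 to 5275785 began 5636 bp upstream of the HBE1 start and is called the HS1 position peak, that from 5280556 to 5281110 began 10611 bp upstream (HS2 position), that from 5287957 to 5288545 began 18012 bp upstream (HS4 position) and that from 5291334 to 5291528 began 21389 bp upstream (HS5 position). A weak peak lay between HS4 and HS5 (5289286 to 5289466). There was no peak at the place of HS3. At the other end of the cluster a peak from 5204830 to 5205158 lay in an exon of a non-coding gene with no symbol, near the known place of the 3' hypersensitive site, and is called the 3' edge peak. The remaining 11 peaks lay outside the globin genes and the locus control region, with 3 beyond the 3' edge peak, 7 among the olfactory receptor genes at the other end and 1 between HBD and HBG1.

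**Figure D1:**
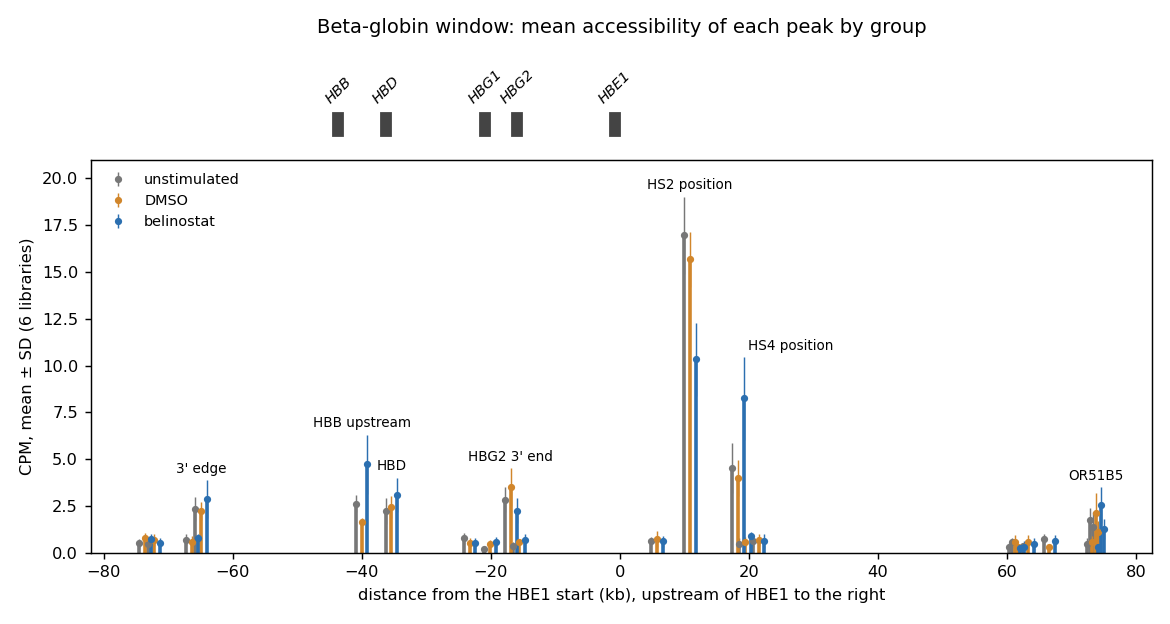
Mean accessibility (CPM scaled by TMM, vertical axis, with SD over 6 libraries) of the 22 peaks against distance from the HBE1 start in kb, for unstimulated, DMSO and belinostat libraries drawn side by side at each peak, with the 5 genes as boxes on top. The HS2 position peak stood highest in every group and belinostat points (blue) lay above the others at the HBB upstream and HS4 position peaks and below them at the HS2 position and HBG2 3' end peaks.

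The sequences of 6 peaks are shown because the results turn on them or because they bound the cluster. They were read from hg38 on the plus strand, as 300 bases around the peak centre for the HBB upstream peak (chr11:5229747-5230046), the HS2 position peak (chr11:5280683-5280982), the HS4 position peak (chr11:5288101-5288400) and the 3' edge peak (chr11:5204844-5205143). The HBD window holds the 300 bases upstream of the HBD start (chr11:5234484-5234783), and the HS5 position peak is given whole (chr11:5291334-5291528). Capitals mark TGACTCA, the core shared by AP-1 and NF-E2, or its reverse complement, AGATAA (the GATA word), and CCACTAG, a core word of the CTCF motif, or its reverse complement.
HBB upstream peak: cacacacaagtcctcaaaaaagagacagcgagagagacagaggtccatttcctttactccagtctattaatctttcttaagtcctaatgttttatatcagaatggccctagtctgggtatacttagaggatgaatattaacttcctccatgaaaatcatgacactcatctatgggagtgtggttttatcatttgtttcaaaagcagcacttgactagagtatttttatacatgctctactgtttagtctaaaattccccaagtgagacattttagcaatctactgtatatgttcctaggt
HS2 position peak: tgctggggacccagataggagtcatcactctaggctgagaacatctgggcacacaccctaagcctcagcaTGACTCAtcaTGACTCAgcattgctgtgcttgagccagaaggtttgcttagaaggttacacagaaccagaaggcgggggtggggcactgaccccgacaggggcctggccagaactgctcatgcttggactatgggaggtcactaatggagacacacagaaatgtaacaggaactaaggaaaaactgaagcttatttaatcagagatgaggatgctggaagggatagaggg
HS4 position peak: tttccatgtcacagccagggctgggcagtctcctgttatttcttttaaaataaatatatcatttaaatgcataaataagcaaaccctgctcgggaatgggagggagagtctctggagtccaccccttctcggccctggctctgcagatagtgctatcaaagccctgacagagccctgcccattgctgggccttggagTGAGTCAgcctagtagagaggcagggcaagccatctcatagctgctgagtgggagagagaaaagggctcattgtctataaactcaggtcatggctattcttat
HBD promoter peak, upstream of the start: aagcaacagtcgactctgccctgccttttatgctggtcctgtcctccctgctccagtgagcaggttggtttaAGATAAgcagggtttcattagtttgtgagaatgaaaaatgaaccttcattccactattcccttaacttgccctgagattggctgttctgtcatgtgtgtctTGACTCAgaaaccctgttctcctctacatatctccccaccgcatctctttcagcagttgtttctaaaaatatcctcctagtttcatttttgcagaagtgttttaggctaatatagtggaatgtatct
3' edge peak: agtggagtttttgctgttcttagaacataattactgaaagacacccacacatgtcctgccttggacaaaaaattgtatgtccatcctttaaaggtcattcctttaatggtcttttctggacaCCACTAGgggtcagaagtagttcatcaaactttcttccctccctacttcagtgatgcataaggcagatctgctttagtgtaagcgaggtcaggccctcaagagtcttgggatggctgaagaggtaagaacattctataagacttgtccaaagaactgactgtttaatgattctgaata
HS5 position peak: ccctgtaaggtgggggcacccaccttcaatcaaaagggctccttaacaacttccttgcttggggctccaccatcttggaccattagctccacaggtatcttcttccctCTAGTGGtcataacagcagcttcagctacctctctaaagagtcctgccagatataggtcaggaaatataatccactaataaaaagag

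The HS2 position peak held TGACTCA 2 times in tandem, from 5280753 to 5280759 and from 5280763 to 5280769, and the HS4 position peak held it 1 time on the other strand, from 5288298 to 5288304. The HBB upstream peak held neither this word nor AGATAA, and its most regular feature was a CA repeat of 34 bp. In the HBD peak AGATAA lay from 5234556 to 5234561 and from 5234828 to 5234833, and TGACTCA from 5234657 to 5234663. Both peaks that bound the cluster, at the 3' edge and at HS5, held CCACTAG in opposite orientation, at 5204966 to 5204972 and at 5291442 to 5291448. Of the 22 windows of 300 bp around the peak centres, 5 held TGACTCA on either strand, 4 held AGATAA, 3 held CCACTAG and 0 held CCACACCC, the box bound by KLF factors, or the full CTCF consensus. Over the central 300 bp of all 334857 peaks, the shares were 12.9% for TGACTCA, 12.9% for AGATAA, 3.46% for CCACTAG, 3.19% for CCACACCC and 1.33% for the CTCF consensus. The 5 words do not overlap each other in these 6 sequences. CCACTAG was added after the sequences had been seen. A match describes letters only.

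After belinostat the leading peak (log2 fold change 1.47) and the HS4 position peak (1.01) were higher than in DMSO libraries and the HS2 position peak (-0.61) lower. Weak peaks, which did not pass, had values as large, with 1.07 ± 0.50 (SE) at 5336420, -1.18 ± 0.56 (SE) at 5331057 and -0.90 ± 0.52 (SE) at 5343115. Of the 22 peaks, 2 were higher and 1 lower at an adjusted p under 0.05 in edgeR's quasi-likelihood test, beside 0.607% higher and 1.75% lower of all peaks tested. These counts are printed for completeness, since this contrast chose the window, and nothing is read from them. The median log2 fold change of the 22 was 0.08, and that of all peaks 0.01. The 3 contrasts share libraries pairwise, so that their values are set side by side and not compared with each other.

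The HBB upstream peak had CPM values from 2.08 over a median of 2.62 to 3.22 in unstimulated libraries, from 1.31 over 1.67 to 1.92 in DMSO libraries and from 3.33 over 4.14 to 7.22 in belinostat libraries. Each of the 3 ranges was free of the others, with DMSO lowest and belinostat highest. The window was chosen for the rise of this peak against DMSO, which favours such a separation. The share of all peaks with ranges free of each other is not given here. Nothing is therefore read from such ranges at this peak or at the peaks below. Raw counts behind them were small, from 9 to 15 per DMSO library and from 18 to 37 per belinostat library. The fitted log2 fold change of belinostat against DMSO was 1.47 ± 0.21 (SE), or 2.78-fold, that of DMSO against unstimulated -0.65 ± 0.23 (SE) and that of belinostat against unstimulated 0.82 ± 0.19 (SE). Of all 334857 peaks, 1562 had a larger belinostat fold change. Among the 18787 peaks of like abundance (average log2 CPM within 0.25), 99.99% had a lower one. Both ranks restate the choice of the window by this peak, and nothing is read from them. Belinostat libraries varied most among themselves at this peak, with a coefficient of variation of 33.4% against 12.3% in DMSO and 17.0% in unstimulated libraries, and belinostat 2 and belinostat 1 were highest. Without belinostat 1 the log2 fold change against DMSO was 1.40, and without belinostat 2 it was 1.33, the lowest value with a single library left out.

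**Figure D2:**
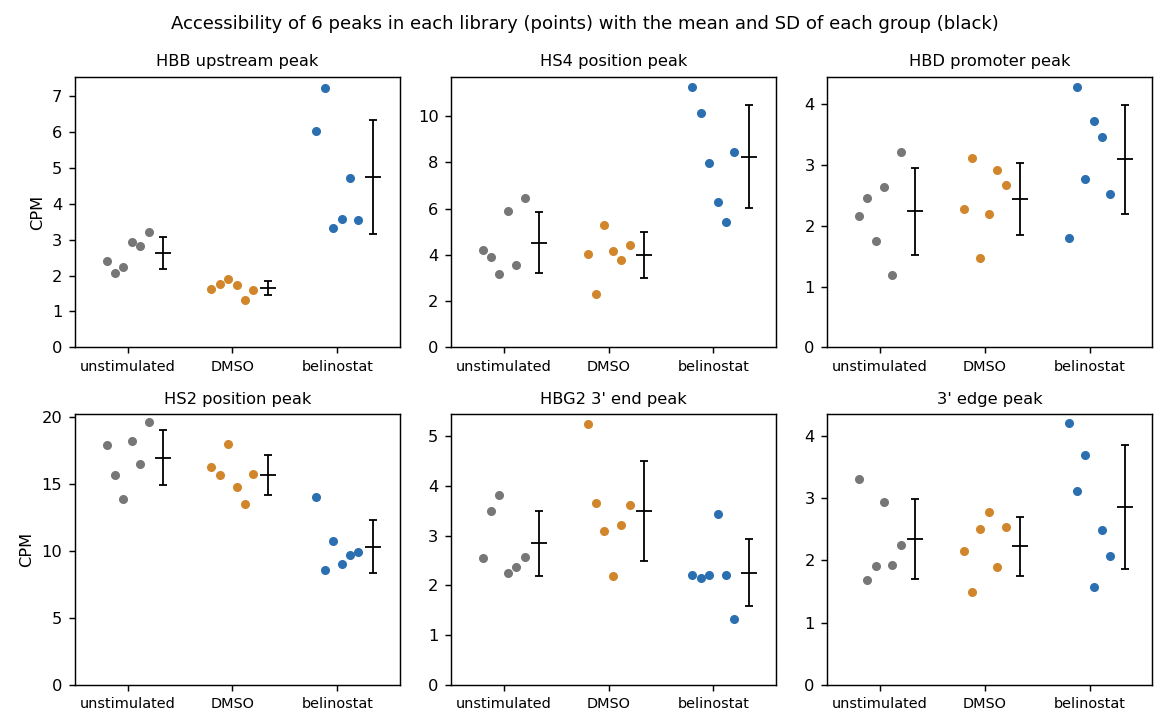
CPM per library (points, 6 per group) with the group mean and SD in black, for 6 peaks in unstimulated, DMSO and belinostat libraries. DMSO libraries of the HBB upstream peak lay between 1.31 and 1.92 CPM and belinostat libraries between 3.33 and 7.22, while at the HS2 position peak belinostat 1 (14.0 CPM) stood among the DMSO values.

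The HS2 position peak was the strongest of the window and stronger than 95.2% of all peaks. CPM values ran from 13.9 over a median of 17.2 to 19.6 in unstimulated, from 13.6 over 15.7 to 18.0 in DMSO and from 8.59 over 9.82 to 14.0 in belinostat libraries. Of the 6 belinostat libraries 5 lay below every other library, and belinostat 1 lay within the DMSO range. The log2 fold change was -0.61 ± 0.13 (SE) against DMSO and -0.73 ± 0.13 (SE) against unstimulated libraries, the latter past the threshold (edgeR quasi-likelihood, adjusted p 2.28e-06). In the same test DMSO and unstimulated libraries differed by -0.12 ± 0.12 (SE, adjusted p 0.50). The 6518 peaks of like abundance had a median of -0.49 against unstimulated, and the HS2 position peak lay 0.24 below it. With loess offsets, which remove this trend, the difference from unstimulated libraries was -0.24 (adjusted p 0.0987) and no longer passed, and that from DMSO libraries was -0.46. Without belinostat 1 the difference from unstimulated libraries was -0.83 (adjusted p 2.58e-08), and without unstimulated 6 it was -0.69 (adjusted p 2.68e-05).

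The HS4 position peak moved the other way. Its values ran from 3.19 over a median of 4.04 to 6.44 CPM in unstimulated, from 2.30 over 4.10 to 5.31 in DMSO and from 5.41 over 8.20 to 11.2 in belinostat libraries. Belinostat and DMSO ranges did not overlap, and belinostat and unstimulated ranges overlapped through belinostat 4 and 5 and unstimulated 4 and 6. The log2 fold change was 1.01 ± 0.17 (SE), or 2.02-fold, against DMSO and 0.82 ± 0.16 (SE, adjusted p 3.72e-05) against unstimulated libraries, where peaks of like abundance had a median of -0.36. With loess offsets the latter was 1.17 (adjusted p 9.72e-10), without belinostat 1 it was 0.71 (adjusted p 0.000352) and without unstimulated 6 it was 0.92 (adjusted p 1.34e-05). The DMSO value against unstimulated was -0.20 ± 0.18 (SE, adjusted p 0.455).

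A comparison inside each library needs no scaling between libraries. Of the counts in the HS2 and HS4 position peaks together, the HS4 position peak took 17.8% to 24.7% in unstimulated, 12.8% to 22.8% in DMSO and 35.8% to 54.2% in belinostat libraries, with means of 20.7% ± 3.03, 20.2% ± 3.75 and 44.01% ± 6.09 (SD, n = 6). All 6 belinostat libraries lay above the other 12. The HS4 position peak rose and the HS2 position peak fell against DMSO, so that this share restates those values and is no separate support. The same holds for the HBB upstream and HS2 position peaks below. Shares of this kind do not remove the trend between strong and weak peaks. The 95% Wilson interval of the lowest belinostat library, 27.4% to 45.1%, overlapped that of the highest unstimulated library, 18.7% to 31.9%, and these intervals cover counting error only. Of the counts in the HBB upstream and HS2 position peaks, the HBB upstream peak took 31.1% ± 7.76 in belinostat libraries on average, against 9.55% ± 0.644 in DMSO and 13.3% ± 1.24 in unstimulated libraries (SD, n = 6). Against the HS4 position peak it took 36.4% ± 6.72 in belinostat, 30.0% ± 6.66 in DMSO and 37.2% ± 4.49 in unstimulated libraries (SD, n = 6), with overlapping ranges. The share of all counts of the window in the HS2 position peak was 35.7% to 43.7% in unstimulated, 34.2% to 43.6% in DMSO and 17.3% to 26.6% in belinostat libraries.

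**Figure D3:**
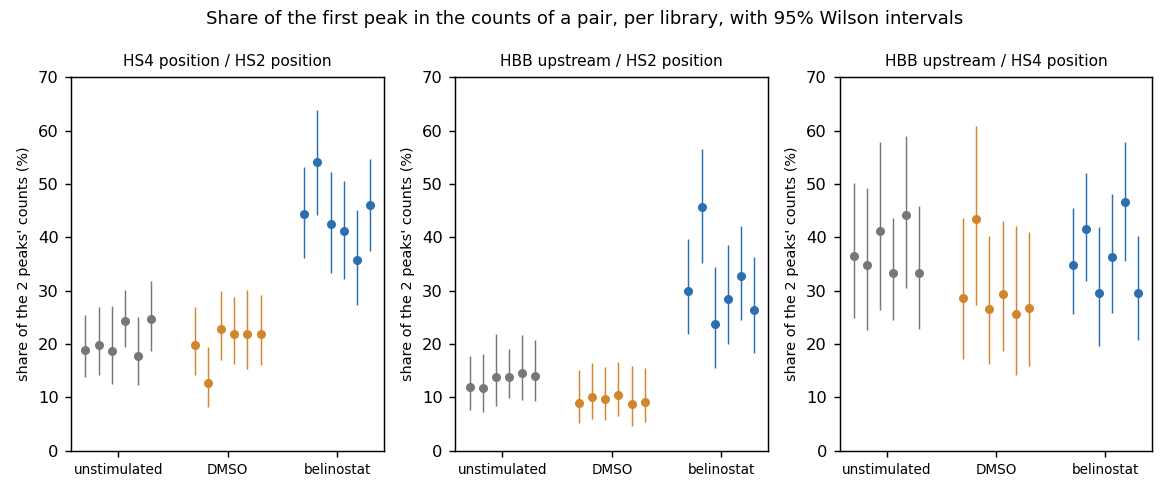
Share of the first peak in the counts of a pair of peaks (percent, vertical axis) per library, with 95% Wilson intervals as bars, for unstimulated, DMSO and belinostat libraries. In the left panel the 6 belinostat libraries sit at 35.8% to 54.2% for the HS4 position peak, above the other 12 libraries, whereas the groups overlap in the right panel.

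The other peaks of the locus control region were weak, with no more than 12 counts in a library. The HS1 position peak had medians of 0.641, 0.587 and 0.635 CPM in unstimulated, DMSO and belinostat libraries, and the HS5 position peak of 0.619, 0.742 and 0.50 CPM, with ranges that overlapped throughout. Against unstimulated libraries the log2 fold changes were -0.09 ± 0.43 (SE, adjusted p 0.898) and -0.04 ± 0.43 (SE, adjusted p 0.959), and with SEs of this size small changes were not detectable at this depth. The peak between HS4 and HS5 had 0.715 to 1.19 CPM in belinostat libraries and 0.130 to 0.883 in unstimulated libraries, which did not pass (0.81 ± 0.41 SE on the log2 scale, adjusted p 0.120). Its value against DMSO was 0.62 ± 0.40 (SE).

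Among the genes, the start of HBD, the minor adult beta-like chain, carried the most accessible of the promoter peaks. Its values ran from 1.19 over a median of 2.31 to 3.22 CPM in unstimulated, from 1.47 over 2.48 to 3.11 in DMSO and from 1.81 over 3.12 to 4.29 in belinostat libraries, and the ranges of all groups overlapped. The log2 fold change was 0.35 ± 0.21 (SE) against DMSO, 0.46 ± 0.22 (SE, adjusted p 0.0912) for belinostat against unstimulated and 0.11 ± 0.22 (SE, adjusted p 0.755) for DMSO against unstimulated. Belinostat 1, whose HBD value was the lowest of its group, decided the call, since without it the difference from unstimulated was 0.56 and passed (adjusted p 0.0375). Library totals (0.77, adjusted p 0.0044) and TMM over 10 kb bins (0.53, adjusted p 0.0467) also let it pass.

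HBG1 and HBG2 code for the fetal gamma chains and are near copies of each other. Of the 50-base words of the HBG1 promoter peak 100% occurred more than 1 time on chromosome 11, of the HBG2 body peak 36.5% and of the HBG2 3' end peak 13.8%, so that reads could be assigned to either gene and these values are uncertain. The HBG1 promoter peak had 0 to 3 counts per unstimulated, 1 to 7 per DMSO and 2 to 5 per belinostat library. Its log2 fold change against unstimulated libraries was 1.02 ± 0.55 (SE, adjusted p 0.175) in DMSO and 1.24 ± 0.56 (SE, adjusted p 0.0761) in belinostat libraries. The HBG2 body peak had 1 to 5, 3 to 7 and 2 to 6 counts, with log2 fold changes of 0.63 ± 0.47 (SE, adjusted p 0.35) and 0.96 ± 0.47 (SE, adjusted p 0.101) in the same order. With loess offsets the 4 values lay between 0.19 and 0.49. With library totals the belinostat difference passed for the HBG1 promoter peak (1.53, adjusted p 0.0252) and the HBG2 body peak (1.26, adjusted p 0.0288), and the latter also passed without unstimulated 5 (adjusted p 0.0479).

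The HBG2 3' end peak was the most accessible of the gamma-globin genes. CPM values ran from 2.26 over a median of 2.56 to 3.82 in unstimulated, from 2.19 over 3.41 to 5.24 in DMSO and from 1.33 over 2.21 to 3.43 in belinostat libraries. Belinostat 4 was the highest of its group and DMSO 4 the lowest of its own, and these 2 libraries made the groups overlap. The log2 fold change was -0.61 ± 0.21 (SE) against DMSO and -0.30 ± 0.22 (SE, adjusted p 0.301) against unstimulated libraries. HBE1, the embryonic gene, held no peak, so that the table gives no value for it, and its nearest peak was that at the HS1 position, 5636 bp away.

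Summed per gene locus (body and 3 kb upstream) and scaled over 18071 gene loci, the same counts gave larger differences from unstimulated cells. The HBD locus rose in belinostat libraries (log2 fold change 0.81 ± 0.25 SE, adjusted p 0.00881). In DMSO libraries the loci of HBG1 (0.62 ± 0.21 SE, adjusted p 0.0275) and HBG2 (0.59 ± 0.21 SE, adjusted p 0.0353) rose, and both hold the HBG2 3' end peak. No gamma-globin peak passed on its own in this contrast, the HBG2 3' end peak having 0.31 ± 0.20 (SE, adjusted p 0.260), though with library totals it passed (0.52, adjusted p 0.0464). The HBD locus holds only the HBD promoter peak, whose difference at the level of peaks (0.46) did not pass, so that these calls rested on the level of the fit. Values of the beta-globin loci with loess offsets or other settings are not given. The part of the trend between strong and weak peaks in these calls is therefore not known. Of all gene loci, 19.5% were higher and 12.1% lower in DMSO than in unstimulated libraries, and 27.1% higher and 24.3% lower in belinostat than in unstimulated libraries.

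Peaks outside the genes and the locus control region showed few differences. The 3' edge peak had medians of 2.09, 2.33 and 2.81 CPM in unstimulated, DMSO and belinostat libraries, with log2 fold changes of 0.30 ± 0.22 (SE) against DMSO, 0.21 ± 0.22 (SE, adjusted p 0.501) against unstimulated and -0.09 ± 0.22 (SE, adjusted p 0.80) for DMSO against unstimulated. A peak in the OR51B5 gene (5343492 to 5343913) had 0.889 to 2.58 CPM in unstimulated and 1.29 to 3.71 in belinostat libraries (0.53 ± 0.26 SE on the log2 scale, adjusted p 0.0986). A further peak from 5336420 to 5336616, outside RefSeq genes and 12123 bp from the OR51B2 start, had 4 to 8 counts per unstimulated and 1 to 3 per DMSO library, with ranges of CPM that did not overlap. It was lower in DMSO than in unstimulated libraries (-1.29 ± 0.46 SE on the log2 scale, adjusted p 0.0371). That call was lost with library totals (adjusted p 0.0872), with DESeq2 (adjusted p 0.0995) and without any 1 of unstimulated 2, 5 and 6 and DMSO 2, 3 and 4 (adjusted p 0.0585 to 0.104).

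In the contrast of DMSO with unstimulated libraries, 0 of the 22 peaks were higher and 2 lower at an adjusted p under 0.05. These were the peak at 5336420 and the leading peak, which is not read as a call, so that 1 remains. Of all peaks, 9.51% were higher and 9.73% lower. At an unadjusted p under 0.05 edgeR again gave 0 higher and 2 lower, and DESeq2 called 0 and 0 with 0 and 2 at an unadjusted p under 0.05. Leaving out single libraries gave 0 to 2 lower. The median log2 fold change of the 22 was 0.15, and that of all peaks 0.13.

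In the contrast of belinostat with unstimulated libraries, 2 of the 22 were higher (the leading peak and the HS4 position peak) and 1 lower (the HS2 position peak), beside 16.8% higher and 13.7% lower of all peaks. Without the leading peak 1 higher and 1 lower remain, and how such counts stand to all peaks turned on the scaling. With library totals 7 were higher, beside 30.4% of all peaks, and with loess offsets 2, beside 3.82%, the leading peak included. Window and whole table had medians of 0.18 and 0.20 on the log2 scale.

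**Figure D4:**
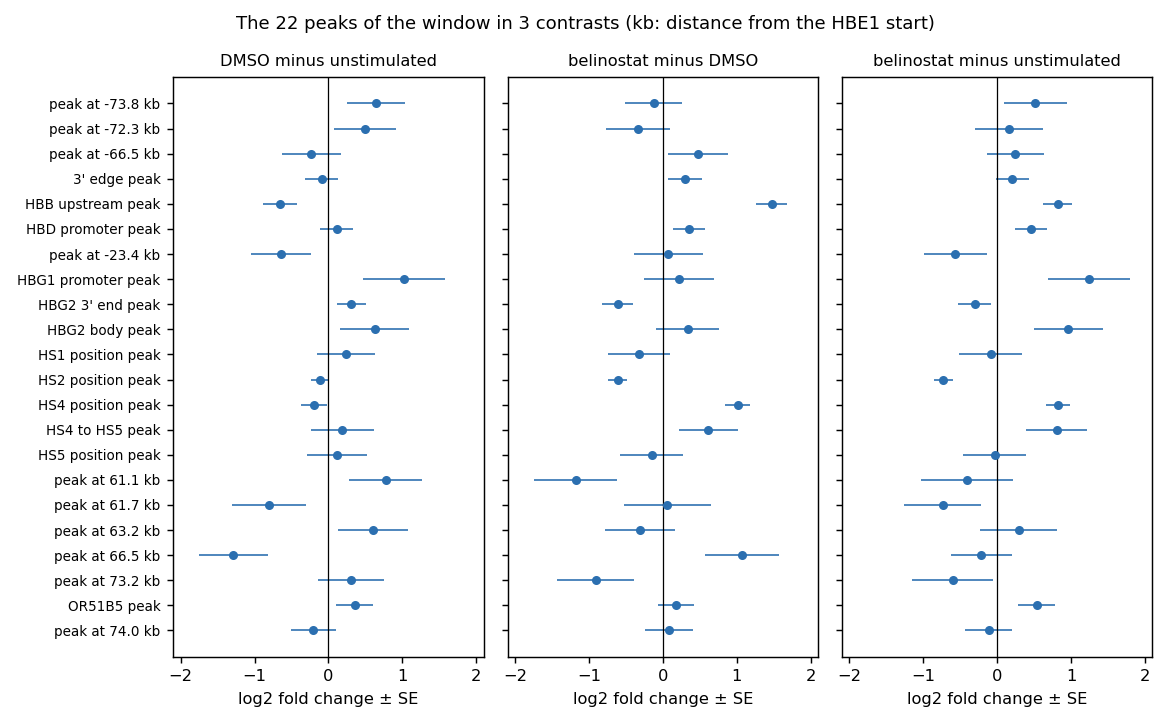
Log2 fold change with its SE (horizontal axis) of each of the 22 peaks in order along the cluster, for DMSO minus unstimulated, belinostat minus DMSO and belinostat minus unstimulated. In the middle panel the HBB upstream peak (1.47) and the HS4 position peak (1.01) stand to the right and the HS2 position and HBG2 3' end peaks (both -0.61) to the left of 0, and weak peaks with wide bars stand as far out or further, at 1.07, -1.18 and -0.90.

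The sum over the window was compared without a test. Total counts of the 22 peaks were 244 to 463 in unstimulated, 266 to 369 in DMSO and 220 to 289 in belinostat libraries. On the log2 CPM scale the window total was 5.43 ± 0.21 in belinostat libraries, 5.354 ± 0.10 in DMSO and 5.39 ± 0.14 in unstimulated libraries (SD, n = 6), and the ranges overlapped. Scaled by library totals the belinostat range (5.41 to 5.78) lay above the unstimulated range (5.12 to 5.36), and the means were 5.56 ± 0.15 in belinostat, 5.40 ± 0.14 in DMSO and 5.22 ± 0.10 in unstimulated libraries (SD, n = 6).

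Libraries with more of the leading peak also had more of the HS4 position peak. Over 18 libraries Pearson's r between their log2 CPM was 0.80, and 0.48 after the group means were removed. Both peaks share each library's scaling and depth, and the relation is given as a description. With the HS2 position peak the leading peak had r = -0.57 over all libraries and 0.35 after removal of the group means, so that its sign differed between and within groups. The 3' edge peak had r = 0.64 with the HS4 position peak before and after removal.

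Outside the window, the 5 peaks most like the leading peak over the 18 libraries, among 95921 whose average log2 CPM reached 1, had Pearson's r from 0.87 to 0.91. The closest (r = 0.91) lay on chromosome 5 from 37071859 to 37072943, 176433 bp from the CPLANE1 start and outside coding genes. Its log2 CPM was 3.05 ± 0.33 in belinostat libraries, 2.04 ± 0.24 in DMSO and 2.47 ± 0.09 in unstimulated libraries (SD, n = 6). The next lay on chromosome 10, at 36336187 to 36336903 693891 bp from the FZD8 start (r = 0.88) and at 13971595 to 13972441 in FRMD4A (r = 0.87), and on chromosome 13 at 30699269 to 30700040, 13445 bp from ALOX5AP (r = 0.87). The last lay 10540 bp from the ALKAL1 start (r = 0.87). All 5 were picked by their r with the leading peak over the same libraries. That choice favours the same order of groups, and nothing is read from it.

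The alpha-globin region on chromosome 16 (102644 to 231179, the genes from HBZ to HBQ1 with 50 kb on each side) held 34 peaks, or 26.5 per 100 kb, against 11.0 per 100 kb in the beta-globin window. It lies among widely expressed genes. Against DMSO the log2 fold changes of its peaks ran from -0.63 to 1.24 with a median of -0.10, and in the beta-globin window from -1.18 to 1.47 with a median of 0.08. The peak called there after belinostat lay from 159010 to 159389, 6366 bp from the HBZ start (1.02, adjusted p 0.0370). At the alpha-globin genes summed per locus, HBA2 had log2 fold changes of 0.60 ± 0.22 (SE, adjusted p 0.109) against DMSO and 0.53 ± 0.21 (SE, adjusted p 0.0372) against unstimulated, the latter turning to -0.25 with loess offsets and no longer passing without any 1 of unstimulated 1, 3 and 4 and belinostat 3, 4 and 5 (adjusted p up to 0.119), and HBA1 of -0.27 ± 0.15 (SE, adjusted p 0.304) and -0.17 ± 0.15 (SE, adjusted p 0.328). In the 100 kb below and above the beta-globin window the median log2 fold changes against DMSO were -0.04 and -0.01. Of the 11 peaks above, 1 was called higher and 0 lower, and the largest value there was 0.99. Of the 4 peaks below, 0 were called, and the largest value was 0.55. Of all peaks, 0.607% were higher and 1.75% lower.

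Genes that act on globin loci in red cells were examined at their own loci, in 6 lists of 56 genes of which 54 had peaks. Belinostat against DMSO lowered 1 of the 54 and raised 0 in edgeR's test over all gene loci (3.65% of all loci lower, 1.76% higher). At an unadjusted p under 0.05 the counts were 6 lower and 11 higher, and DESeq2 called 1 and 0. The locus called was MAFG, a small Maf partner of NF-E2, which went from 6.43 ± 0.06 to 6.17 ± 0.09 log2 CPM (SD, n = 6), or by -0.25 ± 0.05 (SE) in the fit (adjusted p 0.00188). With peaks within 3 kb of the start alone it was -0.25 (adjusted p 0.0505). The median of the 54 was 0.03, and that of all gene loci 0.01.

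Against unstimulated cells the DMSO libraries were higher at 9 and lower at 5 of the 54, beside 19.5% and 12.1% of all loci. The belinostat libraries were higher at 18 and lower at 10, beside 27.1% and 24.3% of all loci. Of the 8 switching factors, BCL11A, the repressor of fetal globin, was higher by 0.43 ± 0.09 (SE, adjusted p 0.00133) in DMSO and by 0.65 ± 0.09 (SE, adjusted p 7.75e-06) in belinostat libraries, and IKZF1 by 0.86 ± 0.17 (SE, adjusted p 0.000666) and 1.06 ± 0.17 (SE, adjusted p 2.75e-05). Both differences of both loci passed with loess offsets too. Of the 10 erythroid activators 5 were higher and 1 lower in belinostat libraries, among them TAL1 (0.82 ± 0.16 SE, adjusted p 0.000226) and GATA1 (1.11 ± 0.26 SE, adjusted p 0.00095), the founding factors of the erythroid programme, and with loess offsets GATA1 no longer passed (0.44, adjusted p 0.110). TAL1 (0.51 ± 0.16 SE, adjusted p 0.0187) and GATA1 (0.94 ± 0.25 SE, adjusted p 0.00703) were higher than unstimulated in DMSO libraries too. LDB1, the bridge between enhancer and promoter complexes, was lower in belinostat libraries (-0.24 ± 0.04 SE on the log2 scale, adjusted p 1.53e-05). It was also lower in DMSO libraries (-0.14 ± 0.04 SE, adjusted p 0.00588). Belinostat against DMSO did not pass at TAL1, GATA1 or LDB1. Of the 10 members of repressor complexes 4 were lower, namely MBD2 (-0.19), MTA2 (-0.23), KDM1A (-0.21) and RCOR1 (-0.11), of which MTA2 alone still passed with loess offsets, and 1 was higher (DNMT1), by 0.23 ± 0.08 (SE, adjusted p 0.0117), which turned to -0.11 with peaks within 3 kb of the start. Of 13 red cell membrane and haem genes with peaks 6 were higher and 2 lower. The largest difference was that of CA1, a carbonic anhydrase, which rested on 58 counts in all libraries (1.83 ± 0.59 SE, adjusted p 0.0113) and no longer passed with loess offsets (0.65, adjusted p 0.334) or without belinostat 4 (1.44, adjusted p 0.0621), followed by SLC4A1, the anion exchanger (1.06 ± 0.21 SE, adjusted p 0.000204). In DMSO against unstimulated libraries CA1 had 0.71 ± 0.66 (SE, adjusted p 0.409) and SLC4A1 0.77 ± 0.21 (SE, adjusted p 0.0072). Of the 8 factors that bind NF-E2 or AP-1 like elements 1 was higher and 3 lower in belinostat than in unstimulated libraries.

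**Figure D5:**
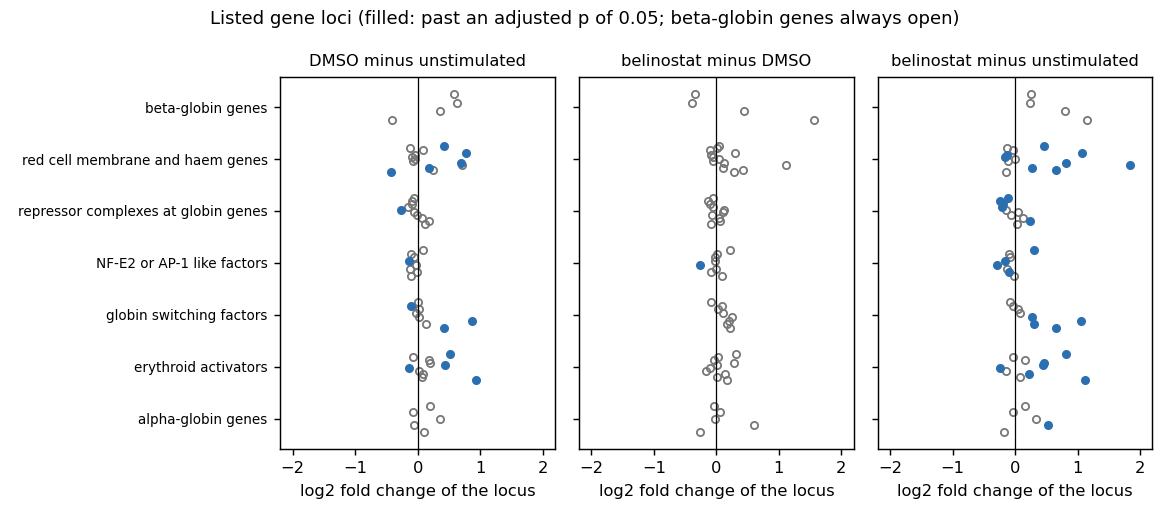
Log2 fold change (horizontal axis) of each gene locus by list, for DMSO minus unstimulated, belinostat minus DMSO and belinostat minus unstimulated. Filled points passed an adjusted p of 0.05, beta-globin loci are always drawn open, and in the middle panel MAFG is the filled point.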

How the data were processed

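Omni-ATAC-seq was measured in 18 libraries of Ccd18-Co cells. The deposited table holds raw counts of fragments in consensus peaks, made by the authors with the ENCODE ATAC-seq pipeline (alignment to hg38, removal of duplicates and mitochondrial reads), MACS2 peaks merged over conditions and counting by csaw. How reads with several matching places were handled is not given in the sources used here.

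The counts were tested with edgeR 4.0.16 (quasi-likelihood, R 4.3.3), with TMM scaling over peaks, all 18 libraries in a single fit without covariates and Benjamini-Hochberg adjustment over 334857 peaks. A minimum average log2 CPM of -3 removed 0 peaks. CPM were scaled by TMM, and log2 CPM used a prior count of 2. Gene loci summed the peaks over a RefSeq body and 3 kb upstream of it, and were fitted over 18071 loci. Scripts were tested on simulated data. Sequence was read from hg38, and genes from RefSeq and GENCODE 44. Alternatives were library totals, TMM over 10 kb bins, loess offsets (limma 3.58.1), DESeq2 1.42.0, a replicate block, other filters, windows and peak assignments, and leaving out each library. The 10 kb bins summed the counts of peaks and held no background reads.

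Depth was 4661678 to 11352032 counts per library. Wilson intervals (95%) cover counting error only. The members and lists were chosen with earlier results of these data known. In full detail were named the peak with the largest rise, the peak nearest each globin start, every peak between HBE1 and the next olfactory receptor gene and the strongest peak, and any member of the fixed lists could be named. Single values of some listed marker genes are not reported here.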

Additional observations from a re-analysis of the deposited data

Results flagged for a closer look

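Of 78 groups of 6 libraries examined, 6 held a library far from the others by Dixon's criterion, and chance gives about 1 in 20 groups. On the log2 CPM scale these were the peak at 5196162 in belinostat 3 (-1.09), the peak at 5246548 in DMSO 3 (0.40), the HS5 position peak in DMSO 6 (-1.25) and the peak at 5343988 in DMSO 3 (-1.21). The share of peaks with a count of 0 was 11.3% in unstimulated 6 and 5.348% in belinostat 1, in each case the highest of its group.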

How the results depend on the processing

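The rise of the HS4 position peak against unstimulated libraries passed under every alternative run, and the fall of the HS2 position peak under all but loess offsets. Every such run used belinostat libraries that also led to the choice of the window, so that passing is not independent of that choice. Few counts limit the gamma-globin, HS1 and HS5 position peaks. The causes of the following changes were not tested. With library totals the window had 1 peak higher and 0 lower after cytokines and 7 higher in belinostat than in unstimulated libraries, the unstimulated window total was 5.22, and 1 listed locus was higher against DMSO. Peaks lower after cytokines were 1 with loess offsets, with average log2 CPM over 0 and from HBB to 25 kb upstream of HBE1, and 0 with DESeq2. Without single libraries they were 0 to 2 (0 without unstimulated 5 or 6, 1 without unstimulated 2 or 4 or DMSO 1 to 5), and peaks lower against DMSO were 1 to 2 (2 without DMSO 4 or belinostat 4).

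Listed loci lower after cytokines were 26 with TMM over 10 kb bins and 3 with peaks within 3 kb of the start, and 3 to 8 without single libraries (3 without unstimulated 2, unstimulated 6 or DMSO 1, 8 without DMSO 3). Against DMSO 2 were higher with loess offsets and 0 lower with peaks near the start, and without single libraries 0 to 3 were higher and 1 to 2 lower, the upper values without belinostat 1. Against unstimulated, 10 kb bins gave 9 higher and 28 lower, and loess offsets 6 lower. The 10 kb bins moved the median of all gene loci to -0.17 after cytokines and to -0.22 in belinostat against unstimulated. Of all gene loci, 48.0% and 55.2% were then lower. The factors of this setting were made with the totals of all peaks and applied to gene loci, which have totals of their own. Nothing is therefore read from the counts of loci under it.

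Signs changed for differences that did not pass. With library totals the belinostat difference from unstimulated was 0.0041 for the HBG2 3' end, 0.22 for HS1, 0.26 for HS5 and 0.074 for the peak at 5336420, and the cytokine difference 0.094 for HS2, 0.016 for HS4 and 0.12 for the 3' edge. With loess offsets the cytokine difference was -0.15 for HS1, 0.22 for HS2, 0.066 for HS4, -0.20 for the HS4 to HS5 peak, -0.29 for HS5 and 0.0088 for the 3' edge. The HS5 difference from unstimulated was 0.036 with 10 kb bins and 0.055 with DESeq2. Of called loci, HBA2 turned to -0.25 with loess offsets and DNMT1 to -0.11 with peaks near the start. Without single libraries the cytokine differences ran from -0.068 to 0.47 (HS1), -0.018 to 0.53 (HS4 to HS5), -0.038 to 0.33 (HS5) and -0.19 to 0.041 (3' edge), and the differences from unstimulated from -0.25 to 0.14 (HS1) and -0.27 to 0.17 (HS5).

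Replicate numbers did not pair the libraries (same-number correlations of -0.20 to 0.11, and 2 of 18 libraries correlated best with their own number). With the replicate block the differences from unstimulated were -0.73 (adjusted p 6.96e-07) for HS2, 0.82 (adjusted p 2.61e-05) for HS4 and 0.023 for HS5, and the counts of window peaks called were as before.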
